A study of Mus musculus with 6 samples.

Results

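Type I interferon response genes are the genes that cells switch on when interferon alpha or beta binds its receptor. The set held 34 listed genes, and a gene was measured where the platform annotation gave a probe set to that gene's symbol alone. This left 32 of 34 genes, out of 19938 genes on the arrays, with the brightest such probe set used where a gene had several. Isg15 shared its probe set with another symbol and Ifi44 had none in the annotation, so neither was analysed here. Oas1a and Ifit3 have close copies in the genome (Oas1g and Ifit3b), whose RNA their probe sets may also detect.

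The arrays held RNA from CD8+ T cells with little CD44 on their surface, which a cell sorter took from spleen and lymph node suspensions. The mice were 10 weeks old and of C57BL/6 background. One group was wild type for Roquin (Roquin+/+) and the other carried the sanroque allele of Roquin on both chromosomes (Roquinsan/san), with 3 arrays each and 1 biological replicate per array. Roquin, encoded by Rc3h1, is an RNA-binding protein that represses mRNAs. The germline allele is in every cell of the mouse, so the cells compared also developed in animals of different genotype. Median intensities of the 6 arrays lay between 53.6 and 56.9. The defining gene Cd8a measured 13.05, 13.00 and 13.01 in the wild-type arrays against 12.99, 13.02 and 12.99 in the sanroque arrays (log2 intensity). In bulk RNA of sorted cells, fewer cells of a type and less RNA per cell cannot be told apart.

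Interferon alpha and beta signal through a receptor of the chains IFNAR1 and IFNAR2, whose kinases JAK1 and TYK2 phosphorylate STAT2 among other factors. STAT2 and IRF9 are parts of the complex ISGF3, which binds the interferon-stimulated response element in promoters. Many genes of the set also respond to interferon gamma, which has a receptor of its own. In T cells, type I interferon restrains viral growth and alters proliferation, survival and effector differentiation.

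Promoter sequences of the set were searched for the response element. RefSeq windows of GRCm38.p6, from 250 bases before to 50 after each start, were found for 25 of the 34 genes (32 windows). The core of the response element was searched as GAAANNGAAA on both strands, so that its reverse complement TTTCNNTTTC also counts. It was present in 12 of 32 windows of the set (37.5%) and in 3.43% of all 32817 windows. Windows of members that rose in sanroque held it in 3 of 8 (37.5%), and windows of members that did not pass in 8 of 22 (36.4%). Some genes had several windows and others none. Counted by gene, it was present in 3 of 6 members that rose and 7 of 17 that did not pass. A match is a description of letters and not of binding, and windows without one say only that these letters are not there.

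Stretches before the start site are given for 3 members that rose (Oas3, Stat2 and Oasl2) and 3 that did not pass (Ifit1, Ifit3 and Rsad2), with each match in capitals. They are written 5′ to 3′ on the gene's strand.
Oas3, chr5:120777695-120777764, minus strand: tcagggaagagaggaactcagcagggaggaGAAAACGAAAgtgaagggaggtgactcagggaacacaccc
Stat2, chr10:128270248-128270315, plus strand: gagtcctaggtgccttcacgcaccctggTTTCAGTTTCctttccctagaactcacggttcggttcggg
Oasl2, chr5:114896834-114896933, plus strand: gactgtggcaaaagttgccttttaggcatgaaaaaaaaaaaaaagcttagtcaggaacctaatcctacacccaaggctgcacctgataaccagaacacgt
Ifit1, chr19:34640755-34640843, plus strand: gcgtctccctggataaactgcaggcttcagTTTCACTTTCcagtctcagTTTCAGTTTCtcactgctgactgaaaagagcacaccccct
Ifit3, chr19:34583343-34583446, plus strand: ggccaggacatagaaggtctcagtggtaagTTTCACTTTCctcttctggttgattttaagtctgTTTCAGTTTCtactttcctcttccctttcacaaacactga
Rsad2, chr12:26456533-26456602, minus strand: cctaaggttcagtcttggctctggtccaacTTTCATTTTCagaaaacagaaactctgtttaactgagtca
Ifit1 and Ifit3 each held 2 matches, Oas3, Stat2 and Rsad2 held 1, and Oasl2, the member with the largest rise, held none in its window. These genes were picked as examples, so their matches do not stand for those of the members that rose or did not pass.

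The sanroque arrays had a higher signal for 8 of the 32 measured members. Oasl2 (2.35-fold), Dtx3l (1.89-fold), Stat2 (1.73-fold), Zbp1 (1.62-fold), Ifih1 (1.60-fold), Oas3 (1.44-fold), Adar (1.37-fold) and Parp9 (1.34-fold) passed limma's test, with the p-values of all genes adjusted by Benjamini-Hochberg and a threshold of 0.05. Among all genes, 3.26% were called higher and 2.51% lower. No member was called lower, and 0 members had an unadjusted p below 0.05 in that direction, against 12 higher (8.16% of all genes were higher and 10.7% lower at an unadjusted p below 0.05). The log2 fold, sanroque minus wild type, was above 0 in 25 of 32 members, where 38.5% of all genes were above 0. Its median over the members was 0.21, beside -0.03 over all genes. The median was 0.097 with arrays weighted by their quality (22 members above 0) and 0.32 without sanroque replicate 2. The 3 sanroque arrays all lay above the 3 wild-type arrays in 12 members (9.46% of all genes), and all below in 0 (13.2% of all genes). The count of 8 depended on single arrays, as did the count of all genes called higher, which was 650 in the main fit. Omitting wild-type replicate 1 left 2 calls (196 over all genes), omitting wild-type replicate 2 left 3 (398), and omitting wild-type replicate 3 left 4 (427). With sanroque replicate 1 omitted there were 6 (455), and with sanroque replicate 2 or 3 omitted there were 4 (337 and 587). Oasl2 and Zbp1 passed in all 6 of these fits and Dtx3l in 5, while Oas3 and Adar passed in 0. With each array centred on its median the count was 3 (378 over all genes). With a score of B cell and myeloid markers in the fit it was 0, as it was for all genes, with 1 member at an unadjusted p below 0.05. With the score, the log2 fold of Ifih1 went from 0.67 to 0.31 ± 0.55 (SE) and that of Oas3 from 0.53 to 0.26 ± 0.41. Adar went from 0.46 to 0.83 ± 0.37. The others moved by less than 1.5 times, to 1.18 ± 0.57 for Oasl2, 0.99 ± 0.52 for Stat2, 0.99 ± 0.30 for Zbp1, 0.91 ± 0.50 for Dtx3l and 0.35 ± 0.34 for Parp9.

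**Figure D1:**
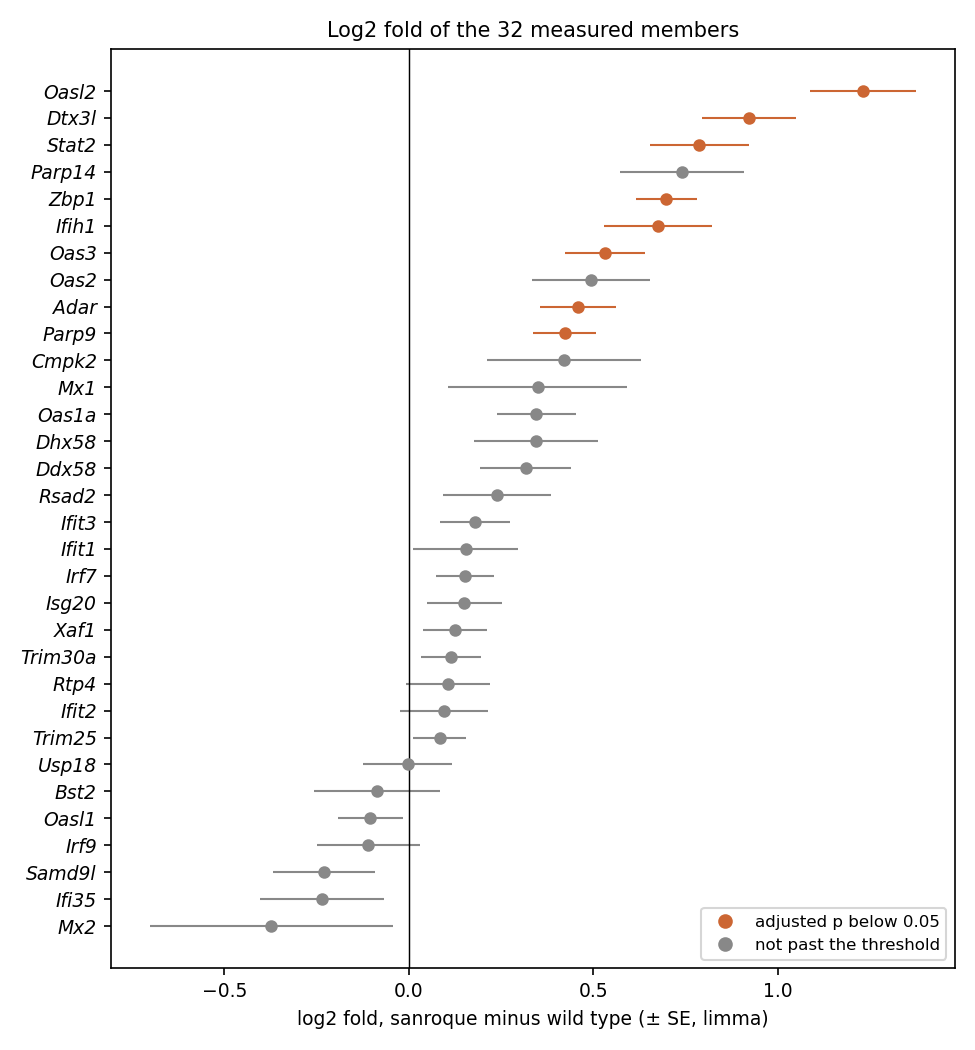
The horizontal axis gives the limma log2 fold, sanroque minus wild type, of the 32 measured members, with bars of 1 standard error, and orange points passed the adjusted p threshold. Oasl2 stands at 1.23 at the top, 25 members lie above 0 and Mx2 is lowest at -0.37.

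Sensors of foreign or misplaced nucleic acid led one group. Zbp1, a receptor for nucleic acids in the Z form that can start necroptosis, measured 9.68, 9.51 and 9.52 in the wild-type arrays against 10.18, 10.38 and 10.24 in the sanroque arrays (log2 intensity). The groups were separated by 0.50 and the 3 sanroque values lay close together. Its log2 fold was 0.70 ± 0.08 (SE; Benjamini-Hochberg adjusted p = 0.00658 by limma). Ifih1, which encodes MDA5, a sensor of long double-stranded RNA, measured 7.93, 7.84 and 7.39 in the wild-type arrays against 8.38, 8.29 and 8.52 in the sanroque arrays. Wild-type replicate 3 was the low array here, and the groups did not overlap. The log2 fold of Ifih1 was 0.67 ± 0.15 (Benjamini-Hochberg adjusted p = 0.0450 by limma), and it passed in 1 of the 6 fits that left out an array, the one without wild-type replicate 3.

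The related helicase genes did not pass. Ddx58, which encodes RIG-I, the sensor of RNA with a free triphosphate end, measured 10.35, 10.22 and 10.13 in the wild-type arrays against 10.36, 10.48 and 10.80 in the sanroque arrays (log2 fold 0.32 ± 0.12, limma, Benjamini-Hochberg adjusted p = 0.214). The lowest sanroque value was 0.01 above the highest wild-type value. Dhx58, which encodes LGP2, a regulator of both of these sensors, measured 7.37, 7.50 and 7.18 in the wild-type arrays against 7.53, 7.48 and 8.08 in the sanroque arrays. Its groups overlapped, with sanroque replicate 3 well above the rest (log2 fold 0.34 ± 0.17, adjusted p = 0.346 in the same fit).

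Of the transcription factors, Stat2 was the one that rose. It measured 8.41, 8.51 and 8.45 in the wild-type arrays against 9.01, 9.18 and 9.55 in the sanroque arrays, a log2 fold of 0.79 ± 0.13 (Benjamini-Hochberg adjusted p = 0.0217 by limma). The wild-type arrays were within 0.10 of each other and the groups were 0.50 apart. Stat2 passed without sanroque replicate 1 or 3 and failed when sanroque replicate 2 or a wild-type array was omitted. Irf9, the DNA-binding partner in ISGF3, measured 9.43, 9.39 and 9.36 in the wild-type arrays against 9.09, 9.14 and 9.62 in the sanroque arrays. Sanroque replicates 1 and 2 were below every wild-type array and replicate 3 above, giving a log2 fold of -0.11 ± 0.14. Irf7, which amplifies interferon alpha production, measured 9.61, 9.50 and 9.48 in the wild-type arrays against 9.76, 9.57 and 9.71 in the sanroque arrays (log2 fold 0.15 ± 0.08, limma, Benjamini-Hochberg adjusted p = 0.381). Its groups overlapped.

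The oligoadenylate synthetase family was split. Its enzymes are activated by double-stranded RNA and make the messenger that turns on RNase L, while the like genes Oasl1 and Oasl2 encode relatives with a ubiquitin-like tail. Oasl2 had the largest fold of the set. It measured 7.76, 7.86 and 7.65 in the wild-type arrays against 8.82, 8.82 and 9.32 in the sanroque arrays, so the groups lay 0.96 apart (log2 fold 1.23 ± 0.14, limma, Benjamini-Hochberg adjusted p = 0.00623). Its adjacent gene Oasl1, known to repress translation of Irf7, measured 8.42, 8.26 and 8.40 in the wild-type arrays against 8.23, 8.14 and 8.39 in the sanroque arrays. Those groups overlapped (log2 fold -0.10 ± 0.09, adjusted p = 0.670 in the same fit).

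Oas3 measured 8.06, 8.15 and 7.93 in the wild-type arrays against 8.56, 8.41 and 8.77 in the sanroque arrays, a log2 fold of 0.53 ± 0.11 (Benjamini-Hochberg adjusted p = 0.0381 by limma). The groups did not overlap, but the gene passed in none of the 6 fits that left out an array. Its neighbour Oas2 measured 7.66, 7.67 and 7.56 in the wild-type arrays against 8.29, 7.73 and 8.35 in the sanroque arrays. Sanroque replicate 2 was just 0.06 above the wild-type arrays, and Oas2 passed without it but not with it (log2 fold 0.49 ± 0.16, limma, Benjamini-Hochberg adjusted p = 0.138). Oas1a had a log2 fold of 0.35 ± 0.11, with sanroque arrays from 7.47 to 7.72 and wild-type arrays from 7.09 to 7.42, and did not pass.

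The neighbouring genes Parp9, Dtx3l and Parp14 of chromosome 16 were the group with the highest median log2 fold, 0.74. Dtx3l encodes a ubiquitin ligase that works in a complex with the ADP-ribosyltransferase PARP9, and Parp14 encodes another ADP-ribosyltransferase. Dtx3l measured 9.11, 9.17 and 8.91 in the wild-type arrays against 9.73, 10.10 and 10.13 in the sanroque arrays. Its groups were 0.56 apart (log2 fold 0.92 ± 0.13, limma, Benjamini-Hochberg adjusted p = 0.0120). Parp9 measured 9.45, 9.57 and 9.45 in the wild-type arrays against 9.76, 9.98 and 9.99 in the sanroque arrays, a smaller log2 fold of 0.42 ± 0.09 (Benjamini-Hochberg adjusted p = 0.0375 by limma). It passed in 1 of the 6 fits that left out an array. Parp14 measured 9.78, 9.78 and 9.57 in the wild-type arrays against 10.08, 10.50 and 10.77 in the sanroque arrays. All 3 sanroque arrays were higher, yet its log2 fold of 0.74 ± 0.17 lay just outside the threshold (limma, Benjamini-Hochberg adjusted p = 0.0502), and it passed without sanroque replicate 1.

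**Figure D2:**
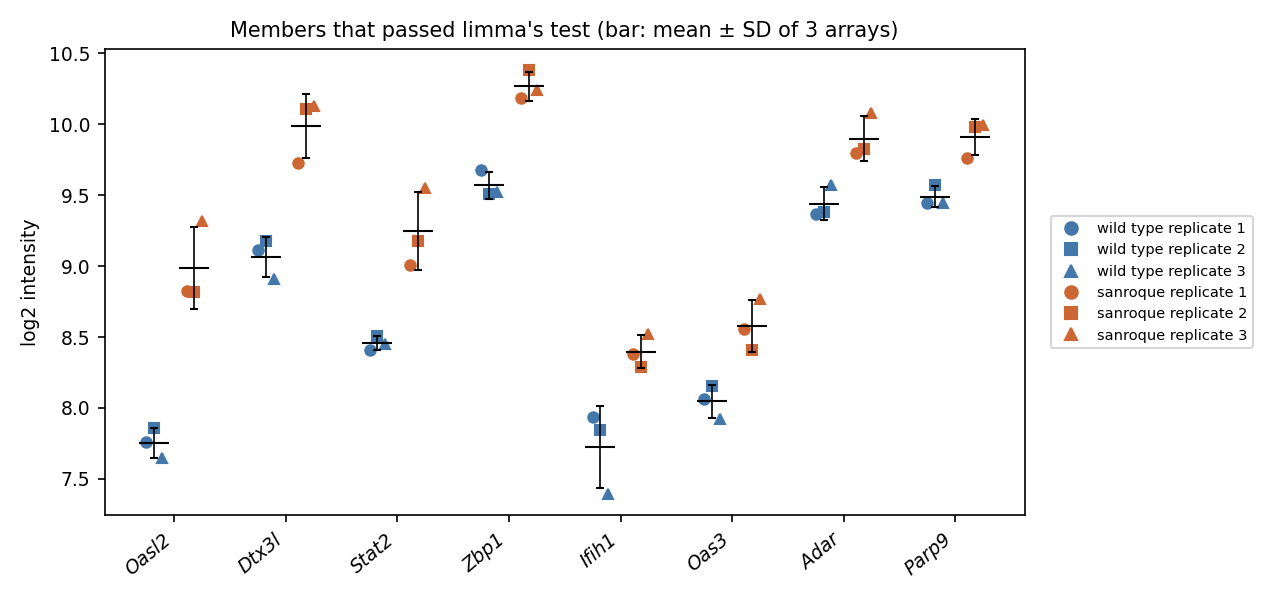
Points give the log2 intensity of each array for the 8 members that passed limma's test, in blue for wild type and orange for sanroque, with a bar for the mean and SD of 3 arrays. In each gene the 3 sanroque arrays lie above the 3 wild-type arrays, by 0.96 in Oasl2 and 0.19 in Parp9, and levels of different genes are not comparable.

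The IFIT genes, which encode proteins that bind foreign RNA ends and are among the most widely used signs of a type I interferon response, did not pass. Ifit1 measured 8.88, 8.73 and 8.66 in the wild-type arrays against 8.90, 8.63 and 9.20 in the sanroque arrays, with a log2 fold of 0.15 ± 0.14 (Benjamini-Hochberg adjusted p = 0.710 by limma). Ifit2 measured 8.18, 8.30 and 8.32 in the wild-type arrays against 8.14, 8.35 and 8.60 in the sanroque arrays (log2 fold 0.10 ± 0.12). Ifit3 measured 7.84, 8.17 and 7.99 in the wild-type arrays against 8.14, 8.16 and 8.24 in the sanroque arrays (log2 fold 0.18 ± 0.09). The groups overlapped in all 3 genes. The lone high value of Ifit1 and of Ifit2 was sanroque replicate 3, and without it the log2 fold of Ifit2 was -0.023.

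Usp18, which removes ISG15 from proteins and damps signalling at the receptor, measured 9.45, 9.55 and 9.37 in the wild-type arrays against 9.33, 9.31 and 9.72 in the sanroque arrays. Its means were 9.46 ± 0.09 and 9.45 ± 0.23 (SD, n = 3 each), and its log2 fold of -0.0036 ± 0.12 took the other sign under quantile normalization (0.032). Trim25, a ubiquitin ligase of the RIG-I pathway, had a log2 fold of 0.08 ± 0.07, with overlapping groups between 9.02 and 9.24.

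Among the other antiviral effectors only Adar, the enzyme that edits adenosine to inosine in double-stranded RNA, passed. It measured 9.36, 9.38 and 9.57 in the wild-type arrays against 9.79, 9.82 and 10.08 in the sanroque arrays (log2 fold 0.46 ± 0.10, limma, Benjamini-Hochberg adjusted p = 0.0478). The groups were 0.22 apart, and Adar passed in 0 of the 6 fits that left out an array. Rsad2, which encodes viperin, measured 6.54, 6.62 and 6.17 in the wild-type arrays against 6.81, 6.45 and 6.79 in the sanroque arrays. Its neighbour Cmpk2, a mitochondrial nucleotide kinase gene, measured 6.93, 6.59 and 6.08 in the wild-type arrays against 6.93, 6.78 and 7.15 in the sanroque arrays. The groups of both genes overlapped, and both were lowest in wild-type replicate 3.

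Mx1 encodes a dynamin-like GTPase against influenza virus and is carried as a defective allele by C57BL/6 mice. It measured 5.88, 5.81 and 5.35 in the wild-type arrays against 5.76, 5.77 and 6.57 in the sanroque arrays, so a single sanroque array was high. Without both replicates 3 its log2 fold went from 0.35 to -0.085. Mx2 measured 5.76, 5.98 and 5.10 in the wild-type arrays against 4.91, 4.88 and 5.93 in the sanroque arrays (log2 fold -0.37 ± 0.33, limma, Benjamini-Hochberg adjusted p = 0.692). Within each genotype 1 array of Mx2 stood far from the pair, and without both replicates 3 its log2 fold was -0.98 with an adjusted p of 0.0130 in the same kind of limma fit.

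Samd9l, a restrictor of poxviruses, measured 9.88, 9.92 and 9.86 in the wild-type arrays against 9.58, 9.41 and 9.97 in the sanroque arrays (log2 fold -0.23 ± 0.14, limma, Benjamini-Hochberg adjusted p = 0.481). Sanroque replicates 1 and 2 were below all wild-type arrays and replicate 3 above, and without sanroque replicate 3 Samd9l was called lower. Bst2, which encodes the virion-tethering protein tetherin, had a log2 fold of -0.09 ± 0.17 and the exonuclease gene Isg20 of 0.15 ± 0.10. Of the remaining members, Xaf1, an apoptosis regulator, had a log2 fold of 0.13 ± 0.09, Trim30a of 0.11 ± 0.08, Rtp4 of 0.11 ± 0.11 and Ifi35 of -0.23 ± 0.17. All had overlapping groups.

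The members also differed between arrays of one genotype, with the same array at the end of the range in most of them. Sanroque replicate 3 was the highest sanroque array in 28 of 32 members (87.5%), where it was highest in 33.7% of all genes. Its median difference from the mean of the other sanroque arrays was 0.29 over the members and -0.02 over all genes. Wild-type replicate 3 was the lowest wild-type array in 24 of 32 members (75%) against 27.6% of all genes, with a median difference from the other wild-type arrays of -0.16 over the members and 0.05 over all genes. Among the 24 members that did not pass, sanroque replicate 3 was highest in 21 and wild-type replicate 3 lowest in 20. All members were read from the same 6 arrays, so these counts are not 32 independent observations.

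Leaving out both replicates 3 took the median log2 fold of the members from 0.21 to 0.06, and that of all genes from -0.03 to 0.01. Oasl2 (1.01), Dtx3l (0.77), Zbp1 (0.69), Stat2 (0.63), Ifih1 (0.45) and Adar (0.44) were then called higher, which makes 6, and Mx2 lower. Of all 19938 genes, 1756 were called in that fit, 625 of them higher and the rest lower. Marker lists of other cells differed in where sanroque replicate 3 stood. The median log2 intensity of the plasma cell list was highest there (8.85, against 8.21 and 8.36), as was that of the CD4 T cell list (7.18, against 6.76 and 6.71). The summed intensity of the CD4 T cell list, however, was highest in sanroque replicate 2 (708.0, against 582.7 in replicate 1 and 638.3 in replicate 3). The plasmacytoid dendritic cell list also had its highest median in sanroque replicate 3 (7.22, against 7.16 and 7.05). Its sum was highest in sanroque replicate 1 (1884, against 1366 and 1831). Its median lay between Tcf4 and Lair1, which B cells and myeloid cells share, in each sanroque array. Siglech, a marker of that list, was lowest in sanroque replicate 3 (5.00, against 5.14 and 5.10). All 3 values lay within its wild-type range of 4.99 to 5.18 and below the median level of all genes (5.91). The myeloid list was lowest there (8.79, against 9.57 and 9.07), and the B cell list was intermediate (8.91, against 9.03 and 8.78). The part of these cells in the array pattern was not tested.

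**Figure D3:**
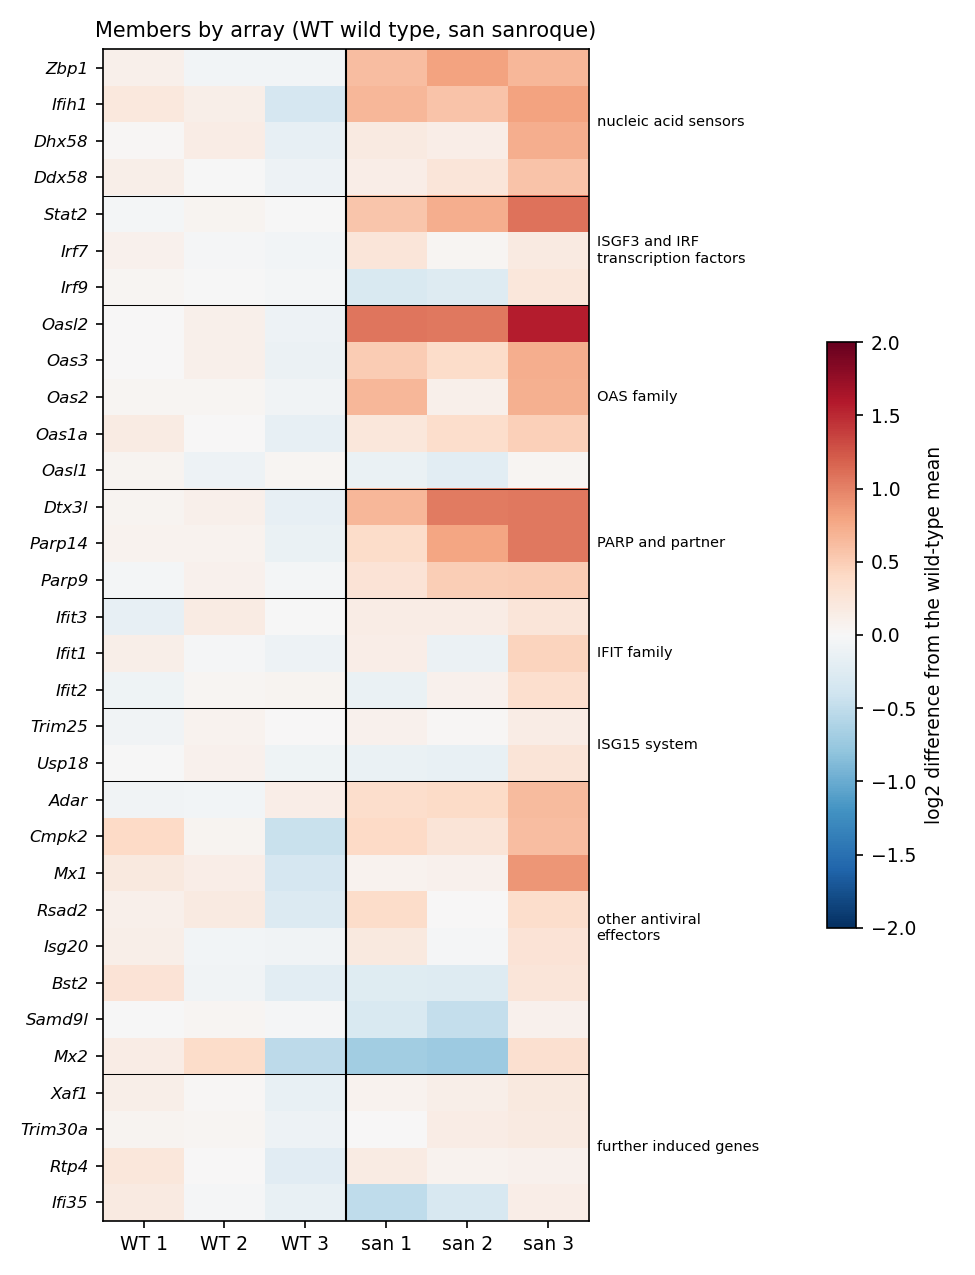
Colours give the log2 difference of each array from the wild-type mean for the 32 measured members, in rows by role, with wild-type (WT) arrays in the left columns and sanroque (san) arrays in the right columns. Oasl2, Stat2, Dtx3l and Zbp1 are raised in all 3 sanroque arrays, while Mx1, Dhx58 and Ifit1 are raised mainly in sanroque replicate 3.

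**Figure D4:**
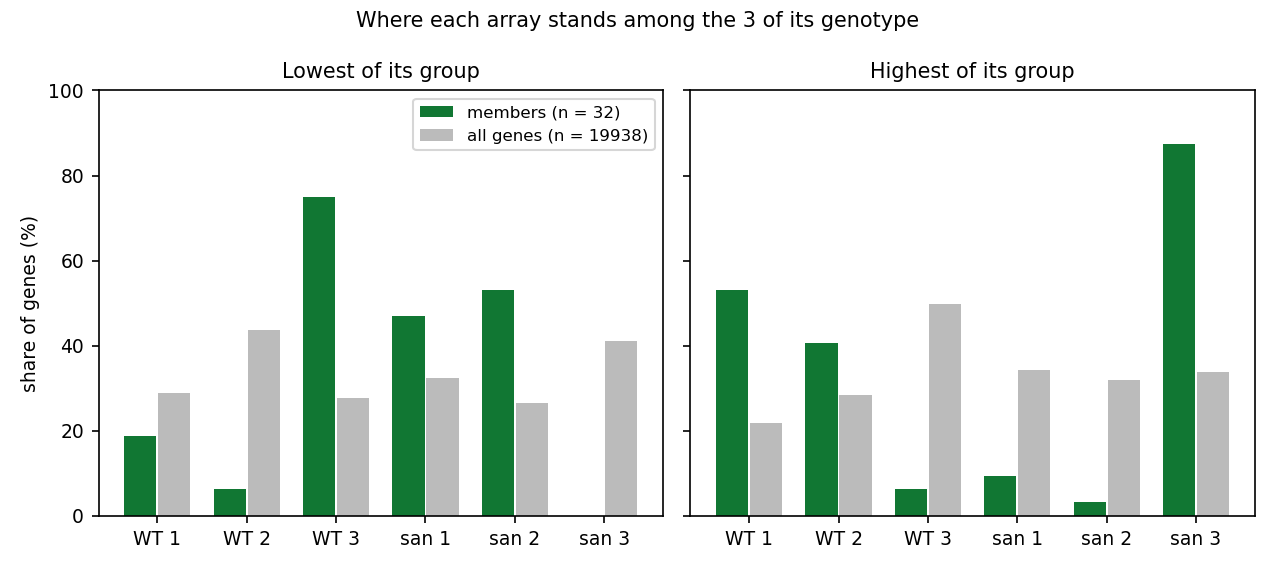
Bars give the share of genes, in percent, in which an array was the lowest (left) or highest (right) of the 3 arrays of its genotype, in green for the 32 members and grey for all 19938 genes. Wild-type replicate 3 was lowest in 75% of members and sanroque replicate 3 highest in 87.5%, against 27.6% and 33.7% of all genes.

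Upstream of the set, ligand genes gave no call. Of 13 listed ligand genes 12 were measured, with a median log2 fold of -0.076. By limma 0 were called in either direction (3.26% of all genes were called higher and 2.51% lower). At an unadjusted p below 0.05 there were also 0 (8.16% of all genes higher and 10.7% lower). Most of these ligand genes had mean levels below the median of all genes (5.91) in both genotypes. Missing calls at such levels do not show that the genes were unchanged. Ifnb1, the interferon beta gene, measured 4.25, 4.24 and 4.38 in the wild-type arrays against 4.20, 4.18 and 4.15 in the sanroque arrays, near the low end of the scale (log2 fold -0.11 ± 0.07, limma, Benjamini-Hochberg adjusted p = 0.483). All sanroque values were just below all wild-type values. Many interferon alpha genes are near-identical copies, so their probe sets may read one another.

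Of 4 measured genes for the receptor and its kinases, Ifnar2 rose. It measured 9.32, 9.52 and 9.26 in the wild-type arrays against 9.90, 9.86 and 9.68 in the sanroque arrays (log2 fold 0.45 ± 0.10, limma, Benjamini-Hochberg adjusted p = 0.0431). With the score of B cell and myeloid markers in the fit its log2 fold was -0.17 (limma, Benjamini-Hochberg adjusted p = 0.982). No gene passed in that fit, which cannot tell genotype and these cells apart. The other receptor chain, Ifnar1, had a log2 fold of -0.06 ± 0.08 with overlapping groups. The kinase genes Jak1 (0.34 ± 0.09) and Tyk2 (0.28 ± 0.08) were above wild type in all 3 sanroque arrays and did not pass.

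Of 12 measured genes that induce interferon, the endosomal receptor genes Tlr7 and Tlr9 rose. Tlr7, for single-stranded RNA, had a log2 fold of 0.89 ± 0.17 (Benjamini-Hochberg adjusted p = 0.0299 by limma), and Tlr9, for DNA, of 0.65 ± 0.07 (limma, Benjamini-Hochberg adjusted p = 0.00553). The groups of both genes did not overlap. B cells and myeloid cells, whose markers were higher in sanroque, carry these receptors too, and their part in these rises was not tested. Irf5 lay just outside the threshold (log2 fold 0.72 ± 0.16, limma, Benjamini-Hochberg adjusted p = 0.0502), and Irf3 was below wild type in all 3 sanroque arrays without passing (log2 fold -0.29 ± 0.09). Of the 3 IRF partner genes, Irf8, a factor of B and myeloid cells that activated T cells also use, rose from 6.98 ± 0.32 to 8.51 ± 0.22 (SD, n = 3 each; limma, Benjamini-Hochberg adjusted p = 0.00587). Irf1, a target and mediator of interferon gamma, had a log2 fold of 0.46 ± 0.13 by its brightest probe set, short of the threshold. Its probe sets disagreed, giving 0.32 for their mean and 0.18 for the most variable one. None of the 5 negative regulators was called by limma, 1 having an unadjusted p below 0.05 on the higher side. In all, 4 of 36 measured pathway genes rose (11.1%, beside 3.26% of all genes) and 0 fell (2.51% of all genes). At an unadjusted limma p below 0.05, 10 were higher (8.16% of all genes) and 1 lower (10.7% of all genes). The median log2 fold was 0.0025. Omitting either wild-type replicate 1 or sanroque replicate 2 left 2 calls, as many as with each array centred on its median. Interferon gamma itself, Ifng, measured 4.33, 4.42 and 4.51 in the wild-type arrays against 5.46, 6.62 and 5.02 in the sanroque arrays, short of the threshold (limma, Benjamini-Hochberg adjusted p = 0.0957). It was highest in sanroque replicate 2 and lowest in sanroque replicate 3 of that genotype.

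**Figure D5:**
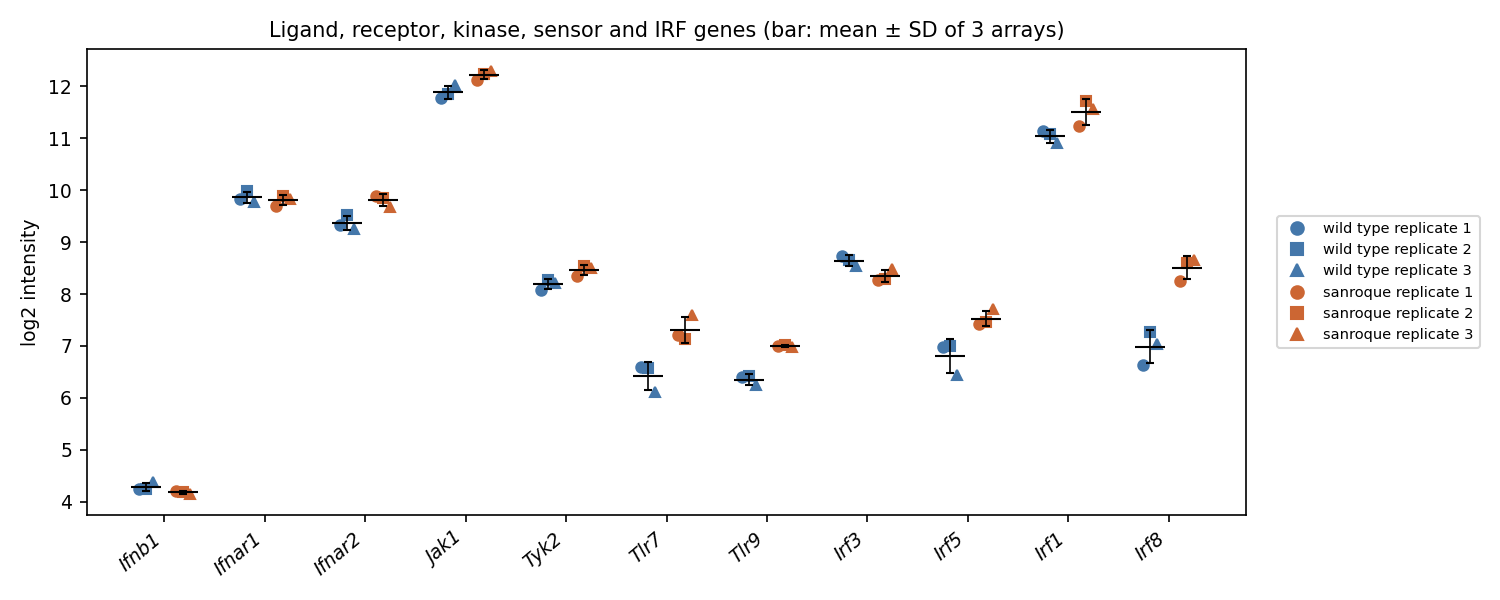
Points give the log2 intensity of each array for ligand, receptor, kinase, sensor and IRF genes, in blue for wild type and orange for sanroque, with a bar for the mean and SD of 3 arrays. Ifnar2, Tlr7, Tlr9 and Irf8 passed limma's test, with log2 folds of 0.45, 0.89, 0.65 and 1.52, while Ifnar1 and Ifnb1 stand at -0.06 and -0.11 and did not pass. Levels of different genes are not comparable.

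A further list of interferon-stimulated genes outside the set was read beside it. Of 36 listed, 31 were measured, 4 rose (12.9%, beside 3.26% of all genes) and 0 fell (2.51% of all genes). At an unadjusted limma p below 0.05, 11 were higher (8.16% of all genes) and 1 lower (10.7% of all genes). The median log2 fold was 0.17. Ube2l6, the conjugating enzyme for ISG15, rose from 5.54 ± 0.31 to 6.84 ± 0.29 (SD, n = 3 each; limma, Benjamini-Hochberg adjusted p = 0.0148). Parp12, another ADP-ribosyltransferase gene, rose by 0.75 ± 0.14, the helicase gene Helz2 by 0.52 ± 0.10 and Pml, which organises nuclear bodies, by 0.48 ± 0.07 on the log2 scale. The 4 became 0 without wild-type replicate 1 or sanroque replicate 2, 2 without wild-type replicate 3 and 7 with quantile normalization.

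Markers of other cell types moved with genotype on these arrays. Of 8 monocyte, macrophage and neutrophil genes 7 rose, led by Ngp (log2 fold 4.12), S100a8 (4.07) and S100a9 (3.94), while Lyz2, the brightest, rose by 3.12 and Cd14 did not pass (0.10). Their summed intensity was 501.1 to 1006 in wild type and 4953 to 7666 in sanroque. Of 7 measured B cell genes 4 rose, and the largest folds among those 4 were of Ms4a1 (2.24), Cd22 (1.81) and Blk (1.27). Cd79b, the brightest, did not pass (0.72), and the summed intensity was 1193 to 2336 against 3098 to 3960. Of 4 plasma cell genes 3 rose, namely Jchain (3.28), Mzb1 (1.81) and Xbp1 (0.75), and the sum was 470.0 to 776.7 against 1563 to 2151. B cells and myeloid cells also express interferon response genes, and the score of their markers did not overlap between the genotypes. Genotype and these cells therefore cannot be told apart by the fit that holds both. In that fit the log2 folds of Irf8 (0.97), Tlr9 (0.40) and Pml (0.23) were lower by over 1.5 times, and those of Parp12 (1.13) and Helz2 (0.80) higher.

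Plasmacytoid dendritic cells, the main makers of interferon alpha, are marked by Siglech, which measured 4.99, 5.18 and 5.16 in the wild-type arrays against 5.14, 5.10 and 5.00 in the sanroque arrays. Of the 6 measured genes of that list Tcf4 (0.62) and Lair1 (0.74), which B cells and myeloid cells share, rose. Ccr9, the brightest, which naive CD8 T cells also carry, did not pass (-0.64), and the summed intensity was 1940 to 2193 in wild type and 1366 to 1884 in sanroque. Of 6 conventional dendritic cell genes only Itgax rose (1.96). The other 5 were not called, with log2 folds from -0.18 (Cd209a) to 0.23 (Flt3), 2 of them below 0. The sum, Itgax included, was 197.3 to 257.0 against 296.7 to 471.5. Of 4 CD4 T cell genes Ikzf2 (1.07) and Zbtb7b (0.80) rose, with a sum of 328.7 to 370.6 against 582.7 to 708.0. Among 4 NK cell genes Fcgr3 (0.89) and Klre1 (0.83) rose. Klrb1c (0.94) did not pass, and Ncr1 had a log2 fold of -0.12 with overlapping groups. The NK cell sum was 110.2 to 120.0 against 169.7 to 216.1. Alas2, the one erythroid gene measured, stood at a log2 fold of 0.25 and was not called. Of 5 CD8 T cell genes Cd3d fell by 0.52 and the others did not pass. Cd44, the gene of the sort marker, had a log2 fold of 1.40 ± 0.17 and was called higher, and Rc3h1 had a log2 fold of 0.14 ± 0.10 and was not. The most variable probe set of Rc3h1 gave the other sign (-0.24).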

How the data were processed

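RNA was measured on 6 Affymetrix mouse arrays. The values the authors deposited are intensities on a linear scale, 1 for each probe set on each array. Partek is named, per the submitters' processing notes, with no role. How background was corrected, probes summarized and arrays normalized is not stated in those notes or labels. The values, from 9.56 to 31996, were taken to log2 with no further step, since quantiles of the arrays differed by at most 0.14. Of 35399 probe sets 21789 had 1 symbol. Symbols were updated through the RefSeq table of GRCm38.p6, which matched 19856 of 19938 genes.

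All 19938 genes were fitted with limma 3.58.1 in R 4.3.3 (lmFit and eBayes, two-sided), and p-values were adjusted by Benjamini-Hochberg over all of them at a threshold of 0.05. Errors of folds are standard errors of that fit. Alternatives were other probe set rules, a filter on dim genes, quantile and median scaling, an offset, trended and unmoderated variance, array weights, the replicate block and each array left out. Fits without 2 arrays, and with the score (mean of the B cell and myeloid list medians per array), were added after seeing the data. The members and lists were chosen with earlier results of these data known. Named were all members, Rc3h1 and Cd44, set receptor, kinase, ligand and IRF genes, called genes of the pathway and further lists, and the brightest and up to 3 called genes of each cell list. Cd14, Siglech, Irf3, Irf5, Ifng, Cd209a, Flt3, Klrb1c and Ncr1 were chosen after their values were seen. For Cd14, Cd209a, Flt3, Klrb1c and Ncr1 only the main fit is given. A gene of the pathway lists is not reported here. The number of arrays limits the precision. Same-numbered arrays did not deviate together (correlations -0.0536, -0.159 and -0.365), beside -0.173 to 0.289 for arrays of unlike number. With so few arrays this cannot show whether the mice were paired, which the labels do not state, and the main fit held no pairing. Figures used matplotlib 3.10.9 in Python 3.11.15.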

Additional observations from a re-analysis of the deposited data

How the results depend on the processing

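The members called higher numbered 8 to 10 with other choices of probe set, the filter on dim genes, quantile normalization, a trended robust variance or array weights. They numbered 3 with median centring, 5 with an offset of 16 before log2, 1 with the replicate number as a replicate block, 0 without moderation, 3 without both sanroque replicate 1 and wild-type replicate 2, 0 with the other-cell score, and 2 to 6 when single arrays were left out. Whether the numbers pair the mice is not known, so the block is given as an alternative. Without moderation few degrees of freedom remain, and 4 of all genes passed. Over all genes 650 were called higher in the main fit, 378 with median centring, 271 with the replicate block and 196 to 587 without single arrays. Calls in either direction over all genes numbered 1151 in the main fit. Array weights raised them to 4733, of which 1998 were higher, so counts under array weights stand beside many more calls everywhere. Without both replicates 3 they numbered 1756, of which 625 were higher. Members called lower numbered 4 with array weights, 1 without both replicates 3 and 0 to 1 without single arrays. Pathway genes called higher numbered 2 with median centring, the offset, the replicate block or without both sanroque replicate 1 and wild-type replicate 2. They numbered 7 with the robust variance, 10 with array weights, 0 without moderation or with the score, and 2 to 4 without single arrays. Pathway genes called lower numbered 3 with array weights, 3 without both replicates 3 and 0 to 1 without single arrays. The further interferon-stimulated genes called higher numbered 7 with quantile normalization, 2 with median centring, 11 with array weights, 1 without both sanroque replicate 1 and wild-type replicate 2, and 0 with the replicate block, the score or no moderation. Without single arrays they numbered 0 to 4. Called lower were 4 with array weights and 1 without both replicates 3. The causes of these shifts were not tested.

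Log2 folds that took the other sign had no call in the alternative. With array weights these were Ifit1 (-0.065), Isg20 (-0.023), Rtp4 (-0.092) and Siglech (0.088), and with quantile normalization Cd8a (0.012) and Usp18 (0.032). Rc3h1 was -0.049 as the mean of its probe sets and -0.24 by the most variable one. With the score they were Alas2 (-0.195), Bst2 (0.39), Cd8a (0.055), Ifi35 (0.27), Ifit3 (-0.29), Ifnar2 (-0.17), Ifnb1 (0.016), Irf9 (0.22), Jchain (-1.596), Oasl1 (0.28), Rsad2 (-0.47), Rtp4 (-0.025), Tcf4 (-0.16), Trim25 (-0.11) and Zbtb7b (-0.2998). Over all fits that left out 1 or 2 arrays, the ranges that crossed 0 were -0.35 to 0.052 for Bst2, -0.041 to 0.29 for Ifit1, -0.023 to 0.22 for Ifit2, -0.12 to 0.054 for Ifnar1, -0.085 to 0.55 for Mx1, -0.0072 to 0.22 for Rtp4, -0.089 to 0.035 for Siglech and -0.18 to 0.11 for Usp18. Genes at the low end of the scale, such as Ifnb1, have folds limited by array background, which the deposited values do not give.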
